A study of Mus musculus with 6 samples.

Results

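The genes examined are 10 that are linked to macrophages resident in tissues: the 3 chains of complement C1q (C1qa, C1qb and C1qc), the scavenger and uptake genes Mrc1, Cd5l and Folr2, and the receptor and signalling genes Fcrls, Cx3cr1, Ms4a6b and Rgs18. They are 10 of 36812 named loci in the deposited tables and were picked by gene name, because earlier values from the same libraries had shown them at low levels in Stc1 knockout cells relative to general macrophage genes. Their levels and their ratios to other macrophage genes are therefore given as descriptions, with no test. The RNA came from cultured fibroblasts of mouse embryos (MEFs), which are primary cells and were either STC1+/+ (wild type, 3 libraries) or STC1-/- (knockout, 3 libraries). Stc1 encodes the secreted glycoprotein stanniocalcin-1. Both genotypes had the C57BL/6 background and were cultured in DMEM with fetal calf serum, and polyadenylated RNA was sequenced with a stranded kit. The sources used here do not say which exons of Stc1 were deleted, nor whether libraries of 1 genotype stem from different embryos or cultures, so the spread between libraries may be technical.

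C1q is the recognition molecule of the classical complement pathway: it binds antibody on a surface, dying cells and some microbes, and then engages the proteases C1r and C1s. Most complement proteins in blood are made by the liver, whereas C1q is made mainly by macrophages and dendritic cells. Macrophages that settle in tissues before birth carry C1q together with endocytic receptors such as the mannose receptor (Mrc1, also called CD206) and, in the brain, the fractalkine receptor Cx3cr1 and the Fc receptor-like protein Fcrls. Cultures of embryonic fibroblasts are made from minced embryos and can hold macrophages.

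The C1q chains are encoded side by side on the minus strand of chromosome 4, within 18.7 kb of the mm10 build. The files place C1qb (XLOC_025330) at chr4:136880129-136886746, C1qc (XLOC_025331) at chr4:136889804-136893065 and C1qa (XLOC_025332) at chr4:136895917-136898803. Fcrls (XLOC_022128, chr3:87250758-87263749, minus strand) and Cd5l (XLOC_021296, chr3:87357881-87371074, plus strand) lie 94.1 kb apart on chromosome 3. Mrc1 (XLOC_017541) is on the plus strand at chr2:14229414-14332057, Folr2 (XLOC_032369) on the minus strand at chr7:101839539-101845431, and Cx3cr1 (XLOC_036313) on the minus strand at chr9:119901616-120068283. Ms4a6b (XLOC_016503) is on the plus strand at chr19:11516512-11531256 and Rgs18 (XLOC_001647) on the minus strand at chr1:144752683-144775435. GENCODE M21 lists each of the 10 as a protein-coding gene. Sequence from the RefSeq promoter windows, outside annotated exons, is shown for 4 of the genes with a PU.1 motif described next, a pair from the C1q cluster and a pair from the uptake genes, read 5′ to 3′ on the gene's own strand from RefSeq on GRCm38.p6. Capitals mark GAGGAA or its reverse complement, the core to which the macrophage transcription factor PU.1 binds. The stretches are chr4:136886201-136886288 for C1qb, chr4:136893066-136893164 for C1qc, chr2:14229164-14229391 for Mrc1 and chr3:87357631-87357880 for Cd5l. That of C1qb lies within the locus of the deposited files, which starts farther upstream than the RefSeq gene.
C1qb: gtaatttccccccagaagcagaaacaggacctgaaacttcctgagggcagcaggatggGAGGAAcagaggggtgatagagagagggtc
C1qc: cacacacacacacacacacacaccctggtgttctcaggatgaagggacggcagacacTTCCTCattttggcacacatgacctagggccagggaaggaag
Mrc1: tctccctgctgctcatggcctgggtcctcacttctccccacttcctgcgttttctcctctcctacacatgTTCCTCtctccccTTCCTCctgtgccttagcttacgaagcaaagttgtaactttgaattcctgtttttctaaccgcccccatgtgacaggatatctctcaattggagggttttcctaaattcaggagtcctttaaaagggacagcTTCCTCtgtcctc
Cd5l: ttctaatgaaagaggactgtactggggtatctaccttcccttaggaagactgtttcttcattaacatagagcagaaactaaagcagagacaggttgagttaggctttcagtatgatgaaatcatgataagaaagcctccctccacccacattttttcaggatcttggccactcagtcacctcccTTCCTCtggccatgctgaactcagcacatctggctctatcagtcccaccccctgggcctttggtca
The search ran over the whole promoter window of RefSeq, which was found for 8 of the 10 genes, on both strands. GAGGAA was present for 5 of these 8 (C1qb, C1qc, Cd5l, Fcrls and Mrc1) and in 28.3% of all 32851 windows. GGAAGT was present for 6 of 8 against 23.8% of windows, AGAGGAAG for 3 of 8 against 4.55%, and TGCTGA, part of the site bound by MAF factors, for 4 of 8 against 19.5%. GAGGAAGT was present for 1 (3.2% of windows), GGAANNGAA for 1 (8.24%), TGACTCA for 1 (5.2%) and CACGTG for 0 (7.15%). GAGGAAGT holds both GAGGAA and GGAAGT, and AGAGGAAG holds GAGGAA, so these counts overlap. A match says only that the letters are there.

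The libraries held 42509592 to 71488701 fragments in wild-type cells and 21882092 to 44552311 in knockout cells. Stc1 itself had 2245, 291 and 368 fragments in wild-type replicates 1 to 3 and 6, 0 and 0 in knockout replicates 1 to 3. Replicate numbers are names and pair no libraries. Fibroblast genes were abundant in all 6 libraries: the 9 genes of that list, led by Col1a1, Col1a2, Vim and Col3a1, summed to 11061, 31091 and 11937 CPM in wild-type and 5537, 9028 and 8686 CPM in knockout libraries, where CPM are counts per 1e6 fragments after TMM scaling. Macrophage genes were present too, in amounts that differed greatly between libraries of the same genotype. A list of 21 pan-macrophage genes summed to 53.0, 1267 and 11562 CPM in wild-type and to 2064, 187 and 252 CPM in knockout libraries, in the order of their numbers. The 2 genes used as a measure of leukocyte RNA followed this order. Tyrobp, which encodes the signalling adaptor DAP12, had 0.934, 58.8 and 717 CPM in wild-type and 87.5, 8.85 and 10.9 CPM in knockout libraries. Ptprc, which encodes the leukocyte antigen CD45, had 0.637, 36.5 and 285 CPM in wild-type and 43.6, 3.22 and 3.86 CPM in knockout libraries. Wild-type replicate 1 thus held the least macrophage RNA of all and wild-type replicate 3 the most, and knockout replicate 1 lay near wild-type replicate 2. In RNA from whole cultures, fewer macrophages and less RNA of a gene per macrophage cannot be told apart from a level alone.

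The C1q chains were very abundant in 2 wild-type libraries and scarce in the other 4 libraries. C1qa had 0.255, 90.5 and 809.7 CPM in wild-type libraries, in the order of replicates 1 to 3, and 2.91, 0.188 and 0.377 CPM in knockout libraries, in the same order. C1qb, the most abundant chain, had 0.807, 177 and 2076 CPM in wild-type and 11.1, 1.47 and 1.93 CPM in knockout libraries. C1qc had 0.580, 129.6 and 1447 CPM in wild-type and 5.45, 0.912 and 0.688 CPM in knockout libraries. Wild-type replicates 2 and 3 stood above every knockout library for each chain, while wild-type replicate 1 lay below knockout replicate 1, so the groups overlapped. The fitted log2 difference, knockout minus wild type, was -8.11 (SE 2.78, n = 3 per genotype) for C1qa, -7.30 (SE 2.62) for C1qb and -7.85 (SE 2.68) for C1qc. Per length, the wild-type replicate 3 culture held 1767 FPKM of C1qb, 1186 FPKM of C1qc and 727 FPKM of C1qa, beside 1276 FPKM of Tyrobp.

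The uptake and secreted genes were also highest in wild-type replicates 2 and 3, with Folr2 spanning the narrowest range of levels. Mrc1, the mannose receptor, had 0.651, 89.4 and 552 CPM in wild-type and 7.70, 1.74 and 1.26 CPM in knockout libraries. Cd5l, a secreted scavenger-receptor protein of macrophages also called AIM, had 3, 102 and 1431 fragments in wild-type and 0, 1 and 9 fragments in knockout libraries. Folr2, the folate receptor beta, had 1.40, 7.85 and 19.8 CPM in wild-type and 2.07, 1.61 and 1.66 CPM in knockout libraries. Folr2 therefore stayed between 1.40 and 2.07 CPM in the 4 libraries where C1q was scarce, a floor that did not follow Tyrobp. Per length it had 0.434, 5.90 and 15.8 FPKM in wild-type and 0.973, 0.603 and 0.624 FPKM in knockout libraries. CPM and FPKM of this gene thus did not keep 1 proportion across libraries. The fitted log2 difference was -5.93 (SE 2.18) for Mrc1, -6.88 (SE 2.37) for Cd5l and -2.45 (SE 0.90) for Folr2.

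The receptor and signalling genes were likewise highest in wild-type replicates 2 and 3, in an order that differed for Cx3cr1. Fcrls, a scavenger-type member of the Fc receptor-like family, had 0.170, 133 and 337 CPM in wild-type and 1.60, 0.0805 and 0.0887 CPM in knockout libraries. Cx3cr1, the receptor for the chemokine fractalkine, had 0.0849, 44.3 and 27.4 CPM in wild-type and 0.0939, 0.0536 and 0.133 CPM in knockout libraries. Wild-type replicate 2 was above replicate 3 for Cx3cr1 only, and the other 9 genes were highest in wild-type replicate 3. Ms4a6b, a membrane protein of the MS4A family, had 3, 426 and 857 fragments in wild-type and 10, 3 and 6 fragments in knockout libraries. Rgs18, a regulator of G-protein signalling in blood cells, had 0, 78 and 409 fragments in wild-type and 3, 0 and 0 in knockout libraries. The limit that a count of 0 sets for Rgs18 was 0.0425 CPM in wild-type replicate 1, and 0.0805 and 0.0666 CPM in the last 2 knockout libraries. The fitted log2 difference was -8.24 (SE 2.68) for Fcrls, -7.94 (SE 2.12) for Cx3cr1, -5.43 (SE 1.91) for Ms4a6b and -6.55 (SE 2.50) for Rgs18.

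None of the 10 genes had all knockout libraries below all wild-type libraries in CPM, against 5.44% of the 15673 genes tested. Wild-type replicate 1 decided this: for 5 of the 10 it was lower than every knockout library. The filter on low counts passed 7 of the 10 and removed Cd5l, Cx3cr1 and Rgs18, whose differences above come from the fit without that filter. Over all genes, edgeR's quasi-likelihood test called 0 of 15673 lower (0%) and 0 higher (0%) in knockout cells at a Benjamini-Hochberg adjusted p under 0.05, with 607 genes at an unadjusted p under 0.05 (270 to 2939 with any 1 library left out, the most without wild-type replicate 1, and 1223 in DESeq2). DESeq2 called 32 of 19059 genes lower (0.168%), among them 6 of the 10 (C1qa, C1qc, Mrc1, Fcrls, Cx3cr1 and Ms4a6b), and 29 higher (0.152%). These calls are part of what the genes were chosen on. The median log2 difference over the 10 genes was -7.09, beside -0.053 over all loci of the same fit without a filter, and it was -4.57 without wild-type replicate 3. The authors' deposited table gives mean FPKM of 269 in wild-type and 1.03 in knockout cells for C1qa, 639 and 4.08 for C1qb, and 62.1 and 0.218 for Fcrls.

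**Figure D1:**
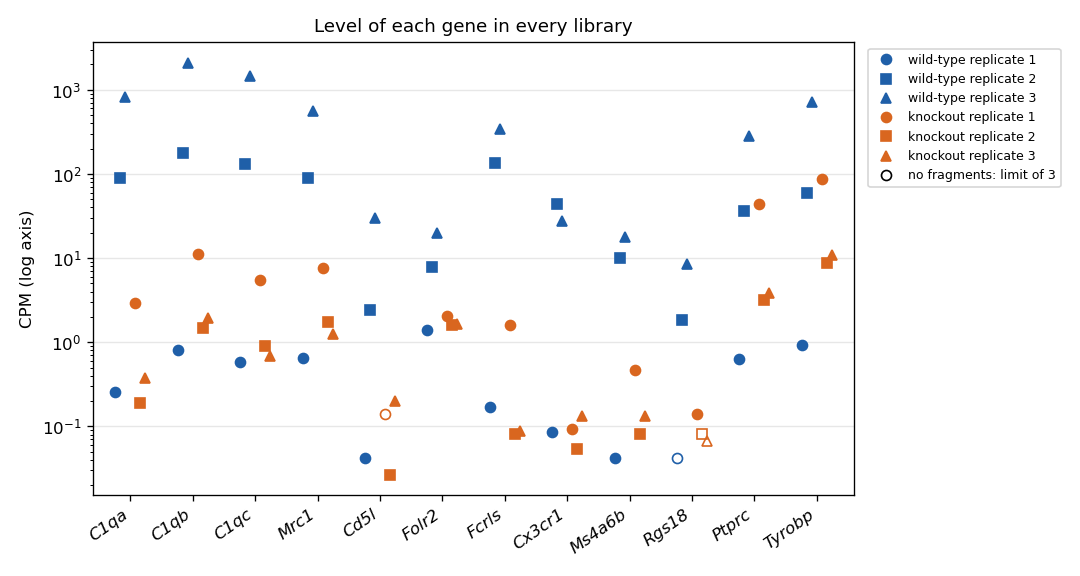
Level of the 10 genes and of Ptprc and Tyrobp in each of the 6 libraries, in CPM on a log axis, with wild type in blue and knockout in orange, symbols for replicates, and open symbols at the limit of 3 fragments where none was counted. Wild-type replicates 2 and 3 are the highest points for each of the 10 genes, and wild-type replicate 1 lies among or below the knockout libraries, while for Tyrobp knockout replicate 1 (87.5 CPM) is above wild-type replicate 2 (58.8 CPM).

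Expressed per Tyrobp fragment of the same library, which accounts for the amount of macrophage RNA as far as Tyrobp measures it, the C1q chains separated by genotype. C1qa had 0.273, 1.54 and 1.13 fragments per Tyrobp fragment in wild-type and 0.0333, 0.0212 and 0.0346 in knockout libraries. C1qb had 0.864, 3.02 and 2.90 in wild-type and 0.127, 0.167 and 0.177 in knockout libraries. C1qc had 0.622, 2.20 and 2.02 in wild-type and 0.0623, 0.103 and 0.0631 in knockout libraries. All 3 knockout libraries lay close together and below all wild-type libraries, although their Tyrobp levels ranged from 8.85 to 87.5 CPM. The lowest wild-type ratio, from replicate 1, was 7.88 times the highest knockout ratio for C1qa, 4.88 times for C1qb and 6.03 times for C1qc. Replicate 1 rests on 66.0 Tyrobp, 18 C1qa, 57 C1qb and 41 C1qc fragments, and the 95% counting interval of its C1qa ratio ran from 0.152 to 0.465, above the upper bound of 0.056 in knockout replicate 3. The mean log2 ratio differed by -4.71 for C1qa, -3.65 for C1qb and -4.23 for C1qc, knockout minus wild type.

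Mrc1 had 0.697, 1.52 and 0.770 fragments per Tyrobp fragment in wild-type and 0.0880, 0.197 and 0.116 in knockout libraries, a log2 difference of -2.88. Cd5l had 0.0455, 0.0406 and 0.0413 in wild-type libraries, the most even wild-type ratio of the 10 genes, and 0, 0.00303 and 0.0183 in knockout libraries. The Cd5l ratio of wild-type replicate 1 rests on 3 fragments, with an interval of 0.0091 to 0.139 that overlaps the 0.0083 to 0.0351 of knockout replicate 3. Folr2 had 1.501, 0.133 and 0.0277 in wild-type and 0.0236, 0.182 and 0.153 in knockout libraries, so its groups overlapped. Its mean log2 difference of -1.01 came from wild-type replicate 1, and it was 0.53 without that library. With FPKM in place of fragments the difference was -1.53.

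Fcrls had 0.182, 2.26 and 0.470 fragments per Tyrobp fragment in wild-type and 0.0182, 0.00909 and 0.00815 in knockout libraries. At -5.59 its log2 difference was the largest of the 10 genes, and the lowest wild-type ratio was 9.97 times the highest knockout ratio. Cx3cr1 had 0.0910, 0.753 and 0.0383 in wild-type and 0.00107, 0.00606 and 0.0122 in knockout libraries. Both genes were most prominent in wild-type replicate 2 and spread more among wild-type libraries than the C1q chains did: the Cx3cr1 ratio of replicate 2 was far above that of replicate 3, while the C1qb ratios of these libraries were nearly equal. The Cx3cr1 ratio of wild-type replicate 1 rests on 6 fragments, and the locus was marked FAIL there in the deposited values. Ms4a6b had 0.0455, 0.170 and 0.0247 in wild-type and 0.00537, 0.00909 and 0.0122 in knockout libraries. The Ms4a6b interval of wild-type replicate 3, from 0.0231, overlaps that of knockout replicates 2 and 3, which reach 0.0268. Rgs18 had 0, 0.0311 and 0.0118 in wild-type and 0.00161, 0 and 0 in knockout libraries, and no order can be read where neither library holds a fragment.

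For 8 of the 10 genes every knockout ratio to Tyrobp was below every wild-type ratio, as was the case for 56 of the 15673 genes tested (0.357%). The exceptions were Folr2 and Rgs18. The 8 include Cd5l and Cx3cr1, which, like Rgs18, did not pass the filter on low counts and are not among the 15673. A gene of even level has its highest ratio in wild-type replicate 1 and its lowest in wild-type replicate 3. Genes that do not follow Tyrobp therefore seldom separate, which keeps the share over all genes low. For 6 of the 8 (C1qa, C1qb, C1qc, Mrc1, Fcrls and Cx3cr1) the counting intervals of all wild-type libraries also lay above those of all knockout libraries. With Ptprc as the denominator the count was again 8 of 10, the same genes, against 32 of 15673 genes (0.204%), and the intervals were apart for 4. The C1qa ratio to Ptprc, for example, was 0.400, 2.48 and 2.84 in wild-type and 0.0667, 0.0583 and 0.0977 in knockout libraries. With FPKM in place of fragments the counts were 8 for Tyrobp and 7 for Ptprc, since Ms4a6b then overlapped. The median log2 difference over the 10 genes was -3.81 relative to Tyrobp and -3.34 relative to Ptprc, beside 0.72 relative to Tyrobp over all genes tested, most of which are not macrophage genes. Among the 550 genes tested whose log2 level had a Pearson r of at least 0.9 with that of Tyrobp over the 6 libraries, a group defined after the values were seen, 38 (6.91%) had every knockout ratio below every wild-type ratio. Choosing genes this way limits how far their ratio to Tyrobp can vary, which holds this share down. The r with Tyrobp was 0.877 for the mean of the C1q chains and 0.807 for Fcrls, both below that limit. Ptprc itself had 0.682, 0.620 and 0.398 fragments per Tyrobp fragment in wild-type and 0.499, 0.364 and 0.354 in knockout libraries, and these overlapped. The sum of fibroblast genes in CPM was also lower in all knockout than in all wild-type libraries, and its part in these ratios was not tested.

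Knockout replicate 1 and wild-type replicate 2 allow a direct comparison of 2 libraries with much macrophage RNA, a pair picked after the values were seen. The wild-type library held 0.672 times the Tyrobp level of the knockout library (95% counting interval 0.633 to 0.714) and 0.836 times its Ptprc level (0.770 to 0.907). Against this, it held 31.1 times as much C1qa (24.2 to 40.6), 15.9 times as much C1qb (14.0 to 18.2) and 23.8 times as much C1qc (19.8 to 28.8). For Mrc1 the ratio was 11.6 (9.92 to 13.6), and for Folr2 it was 3.80 (2.77 to 5.32). For Fcrls it was 83.4 (59.6 to 120.5). Ms4a6b gave 21.2 (11.4 to 44.6), and Rgs18, with 3 fragments in the knockout library, gave 12.96 (4.28 to 64.2). Cx3cr1 had 1890 fragments in the wild-type and 2 in the knockout library, a ratio of 471 with an interval of 130.3 to 3894. Cd5l had 102 and 0 fragments, which makes it at least 17.0-fold higher in the wild-type library, against a floor of 3 counts in the knockout library.

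Of the 10 genes, 9 were at least 4-fold lower in knockout replicate 1 than in wild-type replicate 2, against 3.33% of all genes tested. Of the 7 that passed the filter on low counts, as those genes did, 6 were. Of the 21 pan-macrophage genes 1 was, and 13 were higher in the knockout library, beside 50.9% of all genes. Of 27 tested genes on a list of other resident-type macrophage genes 4 were at least 4-fold lower and 12 were higher, and over all 40 loci of that list 7 were at least 4-fold lower. With 1 library on each side this compares the libraries and not the genotypes.

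**Figure D2:**
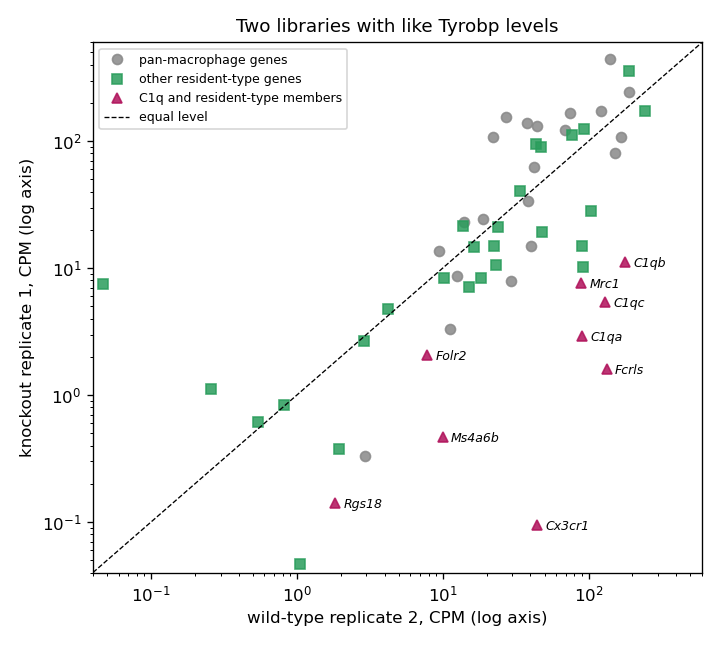
CPM of knockout replicate 1 (vertical, log axis) against wild-type replicate 2 (horizontal, log axis), one point per gene, for the genes described here (triangles), other resident-type genes (squares) and pan-macrophage genes (circles), with the dashed line at equal levels; Cd5l, with 0 fragments in the knockout library, is not drawn. The triangles all lie below the line, from 3.80-fold for Folr2 to 471-fold for Cx3cr1, while 13 of 21 pan-macrophage genes lie above it. The squares and circles are only loci that passed the filter on low counts, whereas the triangles include Cx3cr1 and Rgs18, which did not.

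The pan-macrophage genes, which serve in all macrophages, had lower mean levels in knockout cells, with ratios to Tyrobp centred near equality. All 21 had a negative log2 difference, with a median of -2.78 and 0 called by edgeR, beside -0.047 and 8712 negative among the 15673 genes tested. The median turned to 0.088 without wild-type replicate 3. In the ratio to Tyrobp the median difference was -0.19, and 3 of 21 genes had every knockout ratio below every wild-type ratio: Csf1r, the receptor for macrophage colony-stimulating factor (log2 difference -1.83), Lcp1 (-0.88) and Alox5ap (-1.43). Csf1r had 5.29, 153 and 1266 CPM in wild-type and 81.3, 7.62 and 7.74 CPM in knockout libraries. Laptm5, a lysosomal membrane protein of blood cells, had 2.07, 122 and 983 CPM in wild-type and 173, 14.2 and 17.9 CPM in knockout libraries, and its ratio to Tyrobp varied 1.61-fold over the 6 libraries. That of the lysosomal protease Ctss varied 2.10-fold and that of Mpeg1, a pore-forming protein of macrophages, 6.05-fold. Others of the list also varied widely, with a range of 20.2-fold for Cd53, 18.8-fold for Cd14 and 80.0-fold for Aif1, all named for their values. The range was 23.7-fold for C1qb, 35.4-fold for C1qc and 72.6-fold for C1qa. Cd53, Cd14 and Aif1 had their highest ratio in wild-type replicate 1 (12.3, 7.02 and 0.243), where Tyrobp was lowest, whereas the C1q chains had theirs in wild-type replicate 2. DESeq2 called 1 gene of this list, Aif1, with 0.227, 2.95 and 11.2 CPM in wild-type and 0.329, 0.0268 and 0.177 CPM in knockout libraries. An exact two-sided permutation test of 3 against 3 libraries cannot give a p below 0.1, so no single ratio of any gene could pass it.

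Other genes of resident macrophages also had ratios to Tyrobp centred near equality. Of 40 genes listed, 39 were found, at 40 loci, and 27 loci were tested. Of these 25 had a negative log2 difference, with a median of -1.80 and 0 called by edgeR or DESeq2. This median was -0.097 without wild-type replicate 3. In the ratio to Tyrobp the median was -0.082, and 3 of 27 had every knockout ratio below every wild-type ratio, namely Stab1, Ms4a6c and 1 of 2 Hpgds loci, which are named for their values. Stab1, the scavenger receptor stabilin-1, had 0.436, 91.3 and 430 CPM in wild-type and 10.2, 1.004 and 1.44 CPM in knockout libraries, a log2 ratio difference of -2.65. The most abundant genes of the list are given for comparison. Selenop, a selenium carrier, had 59.2, 77.5 and 2682 CPM in wild-type and 113, 82.8 and 120.5 CPM in knockout libraries. Gas6 and Dab2 were at 188 CPM or more and 100.4 CPM or more in every library, also where Tyrobp was nearly absent. Ms4a7, a relative of Ms4a6b, had 0.892, 47.0 and 815 CPM in wild-type and 90.5, 8.07 and 8.45 CPM in knockout libraries, and its ratio to Tyrobp varied only 1.47-fold.

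Single markers of resident macrophages differed widely in level. Siglec1, a sialic acid-binding receptor, had 0.878, 16.5 and 30.03 CPM in wild-type and 14.7, 2.74 and 3.75 CPM in knockout libraries, and the scavenger receptor Marco reached 27.5 CPM in wild-type replicate 3 and 7.56 CPM in knockout replicate 1. Timd4, Cd163 and Vsig4 were below 1 CPM in every library, as were 11 of the 40 loci in all, and Clec4f had 0 fragments in every library. Lyve1 reached 0.611 CPM at most. P2ry12, a microglial receptor that did not pass the filter on low counts, had 0.0566, 4.66 and 4.74 CPM in wild-type and 0.188, 0.107 and 0.0444 CPM in knockout libraries, and Tmem119, also microglial in the brain, had 14.8 CPM or more in every library. These genes were named after their values were seen.

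**Figure D3:**
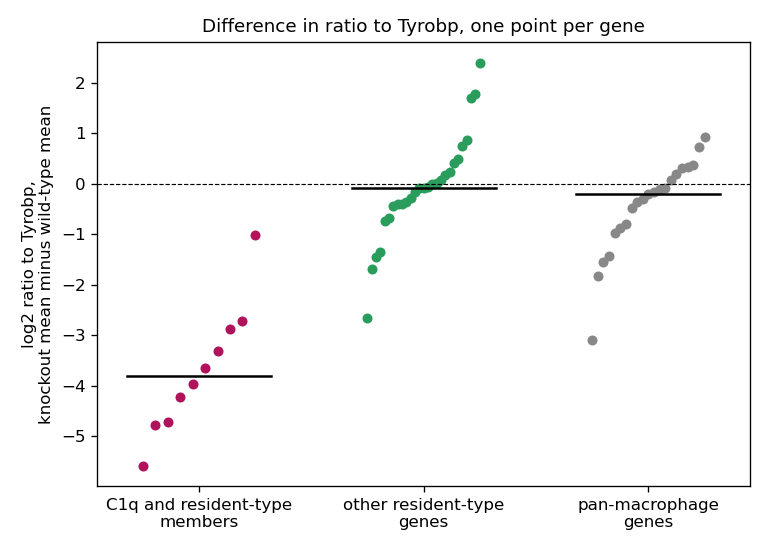
Difference in log2 ratio to Tyrobp, knockout mean minus wild-type mean of 3 libraries each, one point per gene, for the 10 genes described here, 27 other resident-type loci and 21 pan-macrophage genes; black bars are medians and the dashed line is 0. The medians are -3.81, -0.082 and -0.19, and the 10 genes were chosen for low values of this kind. The 10 include Cd5l, Cx3cr1 and Rgs18, which did not pass the filter on low counts. For the other lists only loci that passed it are drawn, so these medians rest on unlike filters.

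The 3 chains of C1q are assembled in equal numbers in the protein, and their RNAs stood in a like order in every library. Per length, C1qa amounted to 0.333, 0.538 and 0.411 times the FPKM of C1qb in wild-type and 0.276, 0.134 and 0.206 times in knockout libraries, so C1qa made up the smallest part in each. C1qc amounted to 0.674, 0.703 and 0.671 times the FPKM of C1qb in wild-type and 0.473, 0.579 and 0.319 times in knockout libraries. Both ratios had lower point values in every knockout than in every wild-type library, but within counting error the groups overlapped. The C1qc to C1qb ratio in fragments had an interval of 0.469 to 1.09 in wild-type replicate 1 and of 0.391 to 0.965 in knockout replicate 2. Likewise, the C1qa to C1qb ratio of wild-type replicate 1 was 0.316 with an interval of 0.175 to 0.544, which covers the 0.262 of knockout replicate 1 (0.195 to 0.347), so the order of these libraries was not detectable at this depth. Relative to C1qb fragments, Fcrls varied more than C1qa or C1qc did, with 0.211, 0.750 and 0.162 in wild-type and 0.143, 0.0545 and 0.046 in knockout libraries. Mrc1 had 0.807, 0.504 and 0.266 in wild-type and 0.692, 1.18 and 0.655 per C1qb fragment in knockout libraries, which overlap.

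Other genes of the complement pathway had no common direction. Of 34 loci used, 28 were tested, 15 had a negative log2 difference and 0 were called by edgeR, with a median of -0.038, whose sign changed with the scale used. C1ra, a protease that acts with C1q, had 27.9, 13.4 and 24.6 CPM in wild-type and 29.1, 28.6 and 28.3 CPM in knockout libraries. C3, the central component, had 182, 5.86 and 313 CPM in wild-type and 323, 249 and 437 CPM in knockout libraries. Calr and Lrp1, which act as cell-surface partners of C1q in the uptake of dying cells, had 1065 CPM or more and 2535 CPM or more in every library. C3ar1, the receptor for the C3a fragment, followed the macrophage genes with 4.83, 89.8 and 1179 CPM in wild-type and 159, 18.5 and 23.9 CPM in knockout libraries. The related receptor C5ar1 was the single gene of the list with every knockout ratio to Tyrobp below every wild-type ratio: it had 0.453, 45.4 and 276 CPM in wild-type and 7.14, 0.697 and 1.02 CPM in knockout libraries, a log2 ratio difference of -2.62. DESeq2 called C1qtnf3 lower, a secreted protein with a C1q-like domain that is not part of C1q, at 24.8, 126 and 52.8 CPM in wild-type and 9.39, 17.8 and 6.32 CPM in knockout libraries. C1ra and C5ar1 here, and Mmp12, Ccl3, Tnf, Fcrl1, Rgs1 and Cx3cl1 in what follows, were named after their values were seen.

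Genes of monocytes and activated macrophages had a median ratio to Tyrobp that was higher in knockout libraries, as was the median over all genes tested. Of 25 loci used, 21 were tested, 12 had a negative log2 difference (median -0.48), and 0 were called by edgeR. In the ratio to Tyrobp the median difference was 1.23, beside 0.72 over all genes tested. For 3 loci every knockout ratio was above every wild-type ratio, against 0.108% of all genes tested: Mmp12, macrophage elastase (3.34), the chemokine Ccl3 (2.27) and Tnf (1.23). Mmp12 ranged from 4.38 to 196 CPM in wild-type libraries and had 727, 46.1 and 74.4 CPM in knockout libraries, most in knockout replicate 1, which also held the most Tyrobp of the 3. Spp1, Gpnmb and Saa3 were abundant but not tied to Tyrobp, with 1802, 1218 and 428 CPM in wild-type replicate 1, and Lpl had 16.01 CPM there. Of 9 osteoclast genes 6 were tested, with a median log2 difference of -0.046. Their median difference in log2 ratio to Tyrobp was 1.06, also beside 0.72 over all genes tested. Atp6v0d2, a subunit of the proton pump, had every knockout ratio above every wild-type ratio (log2 difference 2.07).

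The genes next to the 10 on their chromosomes, and relatives of the same families, were listed too. Of 26 neighbouring loci 15 were tested, 9 had a negative log2 difference and the median was -0.42, with 0 called by edgeR. Among the tested neighbours 1 had every knockout ratio to Tyrobp below every wild-type ratio, against 0.357% of all genes tested. It was Ms4a6c, a relative of Ms4a6b (log2 difference -1.36), whose ratios to Ptprc overlapped. Fcrl1, which lies near Fcrls and did not pass the filter, also had every knockout ratio to Tyrobp below every wild-type ratio with at most 0.141 CPM in knockout cells. Rgs1, in the same family as Rgs18, had every knockout ratio above every wild-type ratio (log2 difference 1.29). Mrc2, the fibroblast relative of Mrc1, had 413, 370 and 251 CPM in wild-type and 266, 372 and 429 CPM in knockout libraries. Among the 14 loci of ligands and partners, all tested, the median was -0.041 and 7 were negative. Csf1, the growth factor read by Csf1r, had 1659, 973 and 870 CPM in wild-type and 1686, 1494 and 979 CPM in knockout libraries, and Cx3cl1, the ligand of Cx3cr1, had 11.7, 49.3 and 12.3 CPM in wild-type and 13.6, 17.9 and 43.1 CPM in knockout libraries.

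Other blood and vessel cells can carry some of the 10 genes, such as Rgs18 in platelets and their precursors and Mrc1 in lymphatic vessels. Of the 9 megakaryocyte and platelet loci 5 were tested and 0 were called by edgeR, with 3 negative. The list summed to 10.5, 27.6 and 53.1 CPM in wild-type and 34.9, 15.5 and 18.0 CPM in knockout libraries. Much of this sum was Pf4, which is also on the list of resident macrophage genes and had 0.156, 13.7 and 29.7 CPM in wild-type and 21.6, 1.02 and 3.93 CPM in knockout libraries. Of 11 endothelial genes 9 were tested and 7 were negative (median -0.51), and they summed to 93.5, 46.6 and 49.4 CPM in wild-type and 89.7, 106 and 53.7 CPM in knockout libraries. Neutrophil genes summed to 10.7, 0.960 and 15.0 CPM in wild-type and 113, 26.5 and 33.5 CPM in knockout libraries. Those of mast cells and basophils summed to 21.7, 26.9 and 13.7 CPM in wild-type and 105, 88.4 and 77.5 CPM in knockout libraries, nearly all from Mcpt8, a basophil protease that DESeq2 called higher. Lymphocyte genes summed to at most 2.54 CPM and erythroid genes to at most 1.10 CPM in any library. The part of these cells in the values of the 10 genes was not tested.

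The profile of the C1q chains over the 6 libraries was compared with that of every other gene tested, as the Pearson r of log2(CPM + 0.5), a description over libraries that share depth and culture. Closest to the mean of the 3 chains were the shared locus of Nlrp1a, Nlrp1b and Nlrp1c (0.998), Apmap (0.997), Mrpl48-ps (0.997), the shared locus of Apoc2 and Apoc4 (0.997) and Lfng (0.996). The Nlrp1 locus had 0.0849, 6.00 and 29.1 CPM in wild-type and 0.799, 0.134 and 0.133 CPM in knockout libraries. Among the 10 genes, Mrc1 had an r of 0.997, Folr2 of 0.991, Fcrls of 0.986 and Ms4a6b of 0.985, whereas Ptprc had 0.908 and Tyrobp 0.877. Closest to Fcrls were Gpr183 (0.999), Tmem109 (0.999), Nin (0.997), Slc30a1 (0.997) and Slc30a5 (0.996). Ms4a6b reached 0.998 with Fcrls, above the 0.979 of C1qb. Several of these genes are at high levels in every library, such as Tmem109 at 55.6 to 116 CPM, so a like order of libraries does not mean a like range.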

How the data were processed

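Messenger RNA of 3 wild-type and 3 knockout fibroblast libraries was analysed from gene tables. The submitters' processing notes name Cuffdiff 2.0.1, TopHat2 2.0.6, CASAVA 1.8.2 and the mm10 build, without role or order. Per the file headers, the authors deposited for each locus an expected count of fragments and an FPKM value (fragments per length and library size), and in a separate table log2 fold changes with p-values and q-values, of which only mean FPKM were used. Of values above 0, 24.2% were not whole (tolerance 1e-06), so counts were rounded before testing. Of 39495 loci, 2667 without a gene name (0.507% to 0.555% of fragments) and 16 marked HIDATA were left out, which left 36812. The sources used here do not say whether counting used strand.

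Counts of the whole table were scaled by TMM, filtered with filterByExpr and fitted in edgeR 4.0.16 (R 4.3.3) by its robust quasi-likelihood method (glmQLFit and glmQLFTest). Each SE given is the absolute log2 difference over the square root of its F statistic. It is thus derived from that test and is not a direct measure of spread between libraries. Alternatives were DESeq2 1.42.0, limma 3.58.1 on log2(FPKM + 1) and log2(FPKM + 0.1), RLE scaling, other filters, other denominators and leaving out each library. Ratios are fragments of a gene over fragments of Tyrobp or Ptprc in the same library, and their mean log2 differences add 0.5 fragments to both. Intervals are 95% exact binomial (Clopper-Pearson), and a count of 0 allows 3 counts; both cover counting error only. The 10 genes and all gene lists were chosen with earlier results of these data known. Named were the 10 genes, up to 4 genes of highest mean CPM per list, list genes past a test, and the 5 closest profiles; loci shared by several genes stayed out of list sums. Every pair of libraries differed beyond sampling noise (chi-square per degree of freedom at least 53.8 over loci with at least 20 fragments).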

Additional observations from a re-analysis of the deposited data

How the results depend on the processing

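No paired analysis was possible because the replicate numbers follow the order of deposition, and the codes in the sample titles, whose meaning the labels do not state, share at most 1 number between the genotypes (4). The planned ratio to Fcer1g was not run, since its locus does not stand for a single gene. The number of genes called was 0 in each direction with edgeR, also without any 1 library, but DESeq2 called 29 higher and 32 lower, and limma on log2(FPKM + 0.1) called 1 higher. The median log2 difference of the 10 genes, -7.09, was -2.52 on log2(FPKM + 1) and -3.80 on log2(FPKM + 0.1). Without 1 library it was -8.35 to -4.57. The FPKM scales compare means of log values, with equal weight per library, whereas the count fit compares mean levels. C1qb, at 0.655 FPKM or more in every library, was at -4.37 on log2(FPKM + 0.1), beside -7.295 in the count fit. The number of genes with every knockout ratio below every wild-type ratio was 8 to 9 without 1 library for both denominators, and 7 to 8 for Ptprc and 8 for Tyrobp under the other alternatives tried. Their median ratio difference lay between -4.04 and -3.46 for Tyrobp and between -3.73 and -2.88 for Ptprc without 1 library. The Folr2 ratio changed sign: to Tyrobp it was 0.84 with fragments pooled over libraries and -2.35 to 0.53 without 1 library, and to Ptprc 0.70 pooled and -1.65 to 0.83 without 1 library, turning without wild-type replicate 1 for both and without knockout replicate 1 (0.54) for Ptprc. The median of pan-macrophage genes ran from -4.65 to 0.088 without 1 library, positive without wild-type replicate 3 only, and that of the other resident-type genes from -2.38 to -0.097, nearest 0 without that library, and -0.72 on log2(FPKM + 1). That of the other complement genes ran from -0.098 to 0.061 without 1 library and was 0.021 on log2(FPKM + 1) and 0.055 on log2(FPKM + 0.1). The causes were not tested. The ratios of wild-type replicate 1, the deepest library but the one with the least macrophage RNA, rest on 0 to 99 fragments of a gene and 66.0 of Tyrobp.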
